A study of Mus musculus with 12 samples.

Results

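Cells carry enzymes that remove reactive carbonyls and electrophiles. Here 10 genes for such enzymes or their relatives were followed in mouse embryonic stem cells through depletion of the splicing factor *Srrm2*. They are *Dcxr*, *Akr1b8*, *Akr1b3*, *Akr1b7*, *Gstp1*, *Gstp2*, *Hagh*, *Haghl*, *Glo1* and *Cbr1*. They were chosen by gene symbol from the 42450 genes of the count table, by a rule written with earlier results of the same libraries in view. Their levels and differences are therefore a description, and the calls given for them support nothing beyond these libraries.

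E14tg2a.4 is an established, here wild-type, mouse embryonic stem cell line that was kept on gelatin with the cytokine LIF and moved to serum-free medium with LIF before collection. Transfection was with siRNA at 50 nM, directed in Srrm2-KD at *Srrm2* and in the control, Gl2-KD, at the luciferase Gl2 of the firefly, a target that mouse cells lack. They were collected 24 h after transfection, or at 72 h after a further transfection at 24 h. Each of 3 experiments held both siRNAs at both times, which gave 12 polyA+ libraries in 4 groups of 3, with 73933196 to 153343831 estimated counts each. The study's text calls the experiments independent biological replicates. In counts per 1000000 (CPM), *Srrm2* itself stood at 442 to 962 over the Gl2-KD libraries and at 154 to 517 over those of Srrm2-KD. It was lower in each experiment, with a log2 fold change of -1.19 over both times (edgeR, adjusted p = 0.00254). At 24 h alone (-1.22, adjusted p = 0.0663) and at 72 h alone (-1.16, adjusted p = 0.0991) it was not called. The study's own fit, with the processing day as covariate, called *Srrm2* at both times. All 8 stem cell markers were detected, with a summed level of 4705 to 7313 CPM. Extraembryonic endoderm markers summed to 2.03 to 4.58 CPM, with *Afp* at 0 in every library. Neural ectoderm markers summed to 64.5 to 176 CPM, fibroblast markers to 4.30 to 24.7, mesoderm markers to 3.22 to 8.47 and liver markers to 0.764 to 2.49. In bulk RNA, fewer cells that express a gene and less RNA per cell cannot be told apart.

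Reactive carbonyls arise from sugar and lipid metabolism. The glyoxalase pathway couples methylglyoxal to glutathione: *Glo1* makes S-lactoylglutathione, and *Hagh* (glyoxalase II) splits it into D-lactate and glutathione, while *Haghl* encodes a protein related to *Hagh*. Aldo-keto reductases of the AKR1B family (*Akr1b3*, mouse aldose reductase, with *Akr1b7* and *Akr1b8*) and the short-chain reductases *Cbr1* and *Dcxr* (dicarbonyl and L-xylulose reductase) reduce carbonyls with NADPH, and the pi-class transferases *Gstp1* and *Gstp2* join electrophiles to glutathione. Several such genes are known targets of NRF2, which binds antioxidant response elements.

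*Gstp1* and *Gstp2* are shown first because reads can be hard to assign between them. Their coding sequences of 630 bases differed at 12 positions (98.1% identical), and 6 of these lay in the first 60 bases (GENCODE M21 transcripts, positions counted from the start codon). Capitals mark the bases that differ.
Gstp1: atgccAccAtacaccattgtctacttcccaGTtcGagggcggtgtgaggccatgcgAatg
Gstp2: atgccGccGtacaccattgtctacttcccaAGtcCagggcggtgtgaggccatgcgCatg
The genes lie side by side on the minus strand of chromosome 19, at chr19:4035407-4037985 and chr19:4040285-4046023. Of the distinct 31-base words in their transcripts, the word length of the pseudo-aligner's default index, 38.5% for *Gstp1* and 60.3% for *Gstp2* also occurred in another gene.

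Upstream sequence was available for 9 of the 10 genes in RefSeq (GRCm38.p6). The 250 bases before a RefSeq start of *Gstp1*, *Gstp2*, *Haghl* and *Dcxr* are shown. The first pair diverged over time, and the others were lower in Srrm2-KD and called or near the threshold on average. Windows of *Akr1b8*, called higher, and of the rare *Akr1b7*, also lower, are not shown. Capitals mark matches, on either strand, to TGANNNNGC, the core letters of an antioxidant response element.
Gstp1, chr19:4037913-4038162, minus strand: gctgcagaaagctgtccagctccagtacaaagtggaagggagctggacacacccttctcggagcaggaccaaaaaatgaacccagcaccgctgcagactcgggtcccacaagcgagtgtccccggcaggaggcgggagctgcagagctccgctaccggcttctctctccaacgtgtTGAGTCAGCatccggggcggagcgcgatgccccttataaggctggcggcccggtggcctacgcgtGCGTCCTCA
Gstp2, chr19:4042222-4042471, minus strand: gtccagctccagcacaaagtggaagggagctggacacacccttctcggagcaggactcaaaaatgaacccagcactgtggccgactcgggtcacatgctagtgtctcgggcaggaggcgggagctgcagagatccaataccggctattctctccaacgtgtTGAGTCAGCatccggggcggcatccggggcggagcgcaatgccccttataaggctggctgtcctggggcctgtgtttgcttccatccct
Haghl, chr17:25785587-25785836, minus strand: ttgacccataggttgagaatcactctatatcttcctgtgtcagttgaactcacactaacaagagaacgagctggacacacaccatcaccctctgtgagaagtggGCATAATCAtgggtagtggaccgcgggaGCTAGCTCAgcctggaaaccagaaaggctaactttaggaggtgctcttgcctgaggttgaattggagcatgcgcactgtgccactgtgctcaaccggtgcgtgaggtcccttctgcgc
Dcxr, chr11:120727285-120727534, minus strand: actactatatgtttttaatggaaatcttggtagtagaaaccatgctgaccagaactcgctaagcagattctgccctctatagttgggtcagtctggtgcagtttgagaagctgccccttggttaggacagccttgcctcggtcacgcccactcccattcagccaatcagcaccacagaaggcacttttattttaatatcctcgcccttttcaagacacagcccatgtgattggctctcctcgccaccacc
Both *Gstp* windows held the run TGAGTCAGC, which also matches TGANTCA, the letters bound by AP-1, and where they aligned they were 88.1% identical. TGANNNNGC was found for 4 of the 9 genes (*Gstp1*, *Gstp2*, *Haghl* and *Glo1*), against 38.7% of all genes with a window of this length, and TGANTCA occurred upstream of 7.82% of genes. *Haghl* has other annotated starts close by, and the window shown is the most distal. The *Gstp2* window lies inside the GENCODE span of that gene, and the *Gstp1* and *Haghl* windows reach partly into the spans of theirs. A match to such short letters is a description and not a binding site.

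Per kilobase of transcript, the order of mean levels over the 12 libraries ran from *Glo1* (424 CPM per kb) and *Akr1b3* (191) through *Gstp2* (134) and *Gstp1* (126) to *Cbr1* (32.4), *Dcxr* (27.4) and *Hagh* (26.4). *Akr1b8* (11.8), *Haghl* (6.40) and *Akr1b7* (0.241) stood lowest. The pairs *Gstp2* and *Gstp1*, and *Cbr1*, *Dcxr* and *Hagh*, were closer to each other than their spread between libraries. *Glo1* therefore had RNA far above *Hagh*, the next enzyme of its pathway. All 10 genes passed the filter on low counts, *Akr1b7* with only 7 to 147 counts per library.

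**Figure D1:**
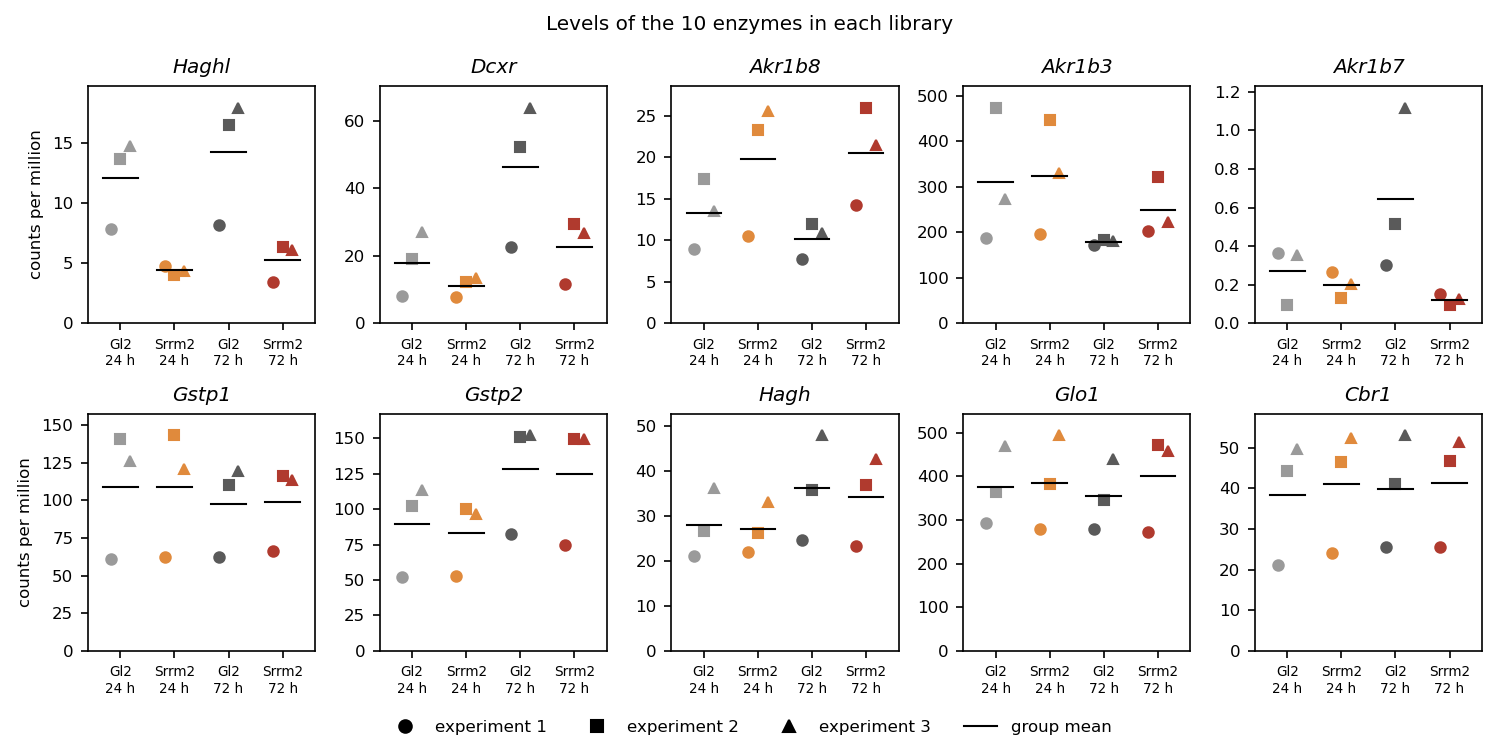
Levels of the 10 enzymes in CPM (vertical axis from 0, a scale for each gene) in the 4 groups, with circles, squares and triangles for experiments 1, 2 and 3 and a bar for the group mean. *Haghl* in Srrm2-KD stayed at 3.38 to 6.37 CPM, below every Gl2-KD library, while *Glo1*, *Cbr1*, *Hagh* and *Gstp1* overlapped between the siRNAs.

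The first question was how the enzymes differed between Srrm2-KD and Gl2-KD. Of the 10 genes, *Haghl* fell and *Akr1b8* rose when the 24 h and 72 h comparisons were averaged, *Dcxr* came close to the threshold, and *Glo1*, *Hagh*, *Cbr1*, *Gstp1* and *Gstp2* differed by 1.12-fold or less at both times. With edgeR's quasi-likelihood test, 2 of the 10 were called in the average, where 0.067% of the 19410 genes tested were called. At 24 h alone 0 of the 10 were called and at 72 h alone 0, with 0.0% of all genes called at each time. *Srrm2* itself was not called at either time, so this lack of calls does not show an absence of change. At an unadjusted p below 0.05 there were 3 at 24 h (2.62% of all genes) and 5 at 72 h (12.9%). DESeq2 called 1 at 24 h (0.129% of all genes), 4 at 72 h (2.79%) and 4 in the average (3.78%), and limma-voom called 0, 0 and 3 (0.0103%, 0.0206% and 0.474%). Since the genes were chosen with these contrasts known, nothing is read from the counts against the background.

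*Haghl* (chr17:25779843-25785673, minus strand) had the clearest difference. In experiments 1, 2 and 3 its level at 24 h was 7.79, 13.7 and 14.8 CPM in Gl2-KD against 4.78, 3.99 and 4.37 CPM in Srrm2-KD. At 72 h the control libraries had 8.17, 16.5 and 17.9 CPM and those of Srrm2-KD 3.38, 6.37 and 6.11 CPM. The groups did not overlap at either time, and every library of Srrm2-KD was below every library of Gl2-KD. The log2 fold change was -1.36 (SE 0.243, edgeR adjusted p = 1.0) at 24 h and -1.41 (SE 0.241, adjusted p = 0.124) at 72 h, and the average of -1.39 (SE 0.171, adjusted p = 0.0272) was a 2.61-fold lower level. The log2 fold change at 72 h minus that at 24 h was -0.05 (SE 0.336). *Haghl* overlaps *Narfl*, a gene of cytosolic iron-sulfur protein assembly, on the opposite strand, and 18.1% of its 31-base words occur there when both strands are counted and 0.0% on the same strand. *Narfl* had 20.3 to 28.1 CPM over all libraries and an averaged log2 fold change of -0.03 (SE 0.0834). The call of *Haghl* was lost when any library of experiment 2 or 3 was left out (adjusted p up to 0.881).

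*Hagh*, whose coding sequence is 64.4% identical to that of *Haghl* over 776 aligned bases, with 224 gap positions left out, showed no such difference. It stood at 21.2, 26.7 and 36.3 CPM in Gl2-KD against 22.1, 26.3 and 33.2 CPM in Srrm2-KD at 24 h, with 24.7, 35.8 and 48.0 CPM against 23.3, 36.9 and 42.7 CPM at 72 h. Its averaged log2 fold change was -0.05 (SE 0.0749, edgeR adjusted p = 0.824), and the libraries of the groups were interleaved. *Fahd1*, which lies within the *Hagh* span on the opposite strand, averaged 0.32 (SE 0.115, edgeR adjusted p = 0.258).

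*Akr1b8* (chr6:34354119-34368463, plus strand), an aldo-keto reductase that acts on lipid aldehydes and retinal, went the other way. At 24 h it had 8.90, 17.4 and 13.5 CPM in Gl2-KD against 10.5, 23.3 and 25.7 CPM in Srrm2-KD. At 72 h it had 7.69, 12 and 10.9 CPM in Gl2-KD against 14.2, 26.0 and 21.5 CPM in Srrm2-KD, and these groups did not overlap. The log2 fold change was 0.54 (SE 0.153) at 24 h, 0.99 (SE 0.154, edgeR adjusted p = 0.124) at 72 h and 0.77 (SE 0.109, adjusted p = 0.0301) on average, a 1.70-fold higher level. It was higher in 3 of 3 experiments at each time. The call was kept in 3 of the 15 fits that left out a library or an experiment.

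*Akr1b3*, the aldose reductase that turns glucose into sorbitol and also reduces methylglyoxal, was far more abundant and differed less. It had 171, 183 and 180 CPM in Gl2-KD against 203, 320 and 223 CPM in Srrm2-KD at 72 h, so that the groups were apart, with a log2 fold change of 0.43 (SE 0.191, edgeR adjusted p = 0.379). At 24 h the ranges of 186 to 474 and 197 to 446 CPM overlapped. *Akr1b7*, best known from the adrenal cortex and vas deferens, was near the limit of detection: 0.302, 0.513 and 1.12 CPM in Gl2-KD at 72 h against 0.149, 0.0924 and 0.123 CPM in Srrm2-KD. Its log2 fold change there was -2.36 (SE 0.545, adjusted p = 0.145), opposite in sign to *Akr1b8*, and at 24 h it was -0.33 (SE 0.514). These 3 genes lie within a single cluster on chromosome 6, at chr6:34302434-34317478 for *Akr1b3* and chr6:34412334-34423142 for *Akr1b7*. The coding sequences of *Akr1b7* and *Akr1b8* were 84.8% identical, and 27.7% and 9.48% of their 31-base words occurred in other genes when both strands were counted. The neighbour *Akr1b10*, which shares 6.41% of the words of *Akr1b8*, had a log2 fold change of 0.65 (SE 0.172, adjusted p = 0.180) at 72 h, with the same sign as that of *Akr1b8*.

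*Dcxr* (chr11:120725399-120727281, minus strand) had 7.92, 18.9 and 26.9 CPM in Gl2-KD against 7.73, 12.1 and 13.5 CPM in Srrm2-KD at 24 h. At 72 h it had 22.7, 52.2 and 63.9 CPM in Gl2-KD against 11.6, 29.5 and 26.8 CPM in Srrm2-KD. The groups overlapped at both times, with the Gl2-KD library of experiment 1 inside the range of Srrm2-KD. Within each experiment, however, Srrm2-KD was lower. Those within-experiment log2 ratios were -0.03, -0.65 and -0.996 at 24 h and -0.96, -0.82 and -1.26 at 72 h. As fitted, the log2 fold change was -0.56 (SE 0.171) at 24 h, -1.01 (SE 0.170, edgeR adjusted p = 0.124) at 72 h and -0.78 (SE 0.121, adjusted p = 0.0511) on average. The average thus lay just outside the threshold. Of 10 other settings 9 called it, but of the 15 fits that left out a library or an experiment 3 did (adjusted p up to 0.881). None of its 31-base words occurred in another gene.

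The remaining enzymes were not called in these comparisons by edgeR, DESeq2 or limma-voom. *Glo1* was at 293, 364 and 470 CPM in Gl2-KD against 280, 383 and 494 CPM in Srrm2-KD at 24 h, and at 279, 347 and 440 against 273, 473 and 457 CPM at 72 h, with an averaged log2 fold change of 0.10 (SE 0.0744). *Cbr1*, which reduces quinones and prostaglandins, ranged from 21.1 to 53.0 CPM and had 0.08 (SE 0.0680). *Gstp1* had 0.02 (SE 0.0735) and *Gstp2* -0.07 (SE 0.0590). The groups separated for 1 of the 10 genes at 24 h (*Haghl*; 3.44% of all genes) and for 4 at 72 h (*Haghl*, *Akr1b8*, *Akr1b3* and *Akr1b7*; 6.66%).

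**Figure D2:**
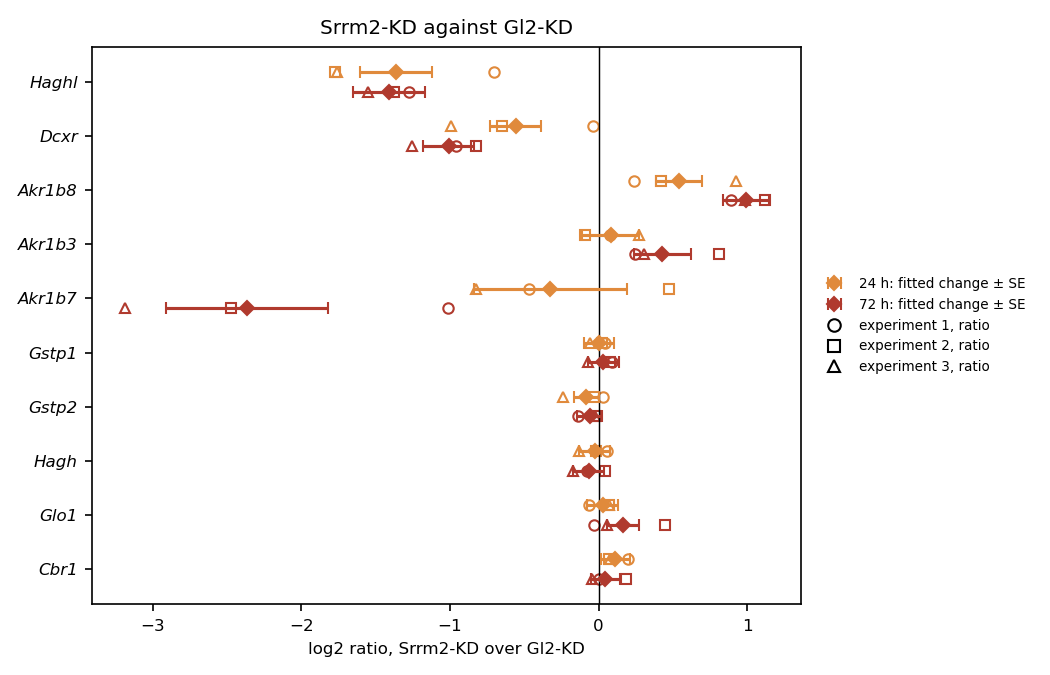
Log2 ratio of Srrm2-KD over Gl2-KD (horizontal axis) for each enzyme at 24 h (orange) and 72 h (red); diamonds with bars are the fitted fold change ± SE, and open symbols are the ratios within experiments 1, 2 and 3. *Haghl* and *Dcxr* lie left of 0 and *Akr1b8* right of 0 in all experiments, and *Akr1b7* has the widest error at 72 h (SE 0.545).

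Whether the difference between siRNAs changed from 24 h to 72 h was tested as an interaction. It was called for 0 of the 10 genes and for 0.0% of all genes by edgeR, and DESeq2 and limma-voom called 0 of the 10 as well (0.0103% and 0.0% of all genes). At an unadjusted p below 0.05, which 1.64% of all genes reached, there was 1, *Akr1b7* (-2.04, SE 0.743). For *Dcxr* the interaction was -0.45 (SE 0.239) and for *Akr1b8* 0.45 (SE 0.216), so that larger differences at 72 h than at 24 h were not established for either.

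The second question was how the enzymes differed between 72 h and 24 h. The 72 h cells had also been transfected again at 24 h, so time in culture and the further transfection cannot be told apart. *Dcxr* and *Gstp2* rose from 24 h to 72 h with both siRNAs. edgeR called 2 of the 10 in Gl2-KD, where 1.45% of all genes were called, and 2 in Srrm2-KD, where 0.551% were. *Dcxr* rose by 1.40 on the log2 scale in Gl2-KD (SE 0.171, edgeR adjusted p = 0.0112), a 2.64-fold change, and by 0.95 in Srrm2-KD (SE 0.171, adjusted p = 0.0467). *Gstp2* was at 51.9, 102 and 114 CPM at 24 h and 82.8, 151 and 152 CPM at 72 h in Gl2-KD, and at 52.9, 99.9 and 96.3 CPM and 75.0, 149 and 150 CPM in Srrm2-KD. Its log2 fold changes were 0.55 (SE 0.0838, adjusted p = 0.0175) and 0.57 (SE 0.0838, adjusted p = 0.0318), and it was higher at 72 h in each experiment. In Srrm2-KD the call of *Dcxr* was kept in 1 of 15 fits that left out a library or an experiment and that of *Gstp2* in 2.

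*Gstp1* did not follow. It was at 60.7, 141 and 126 CPM at 24 h and 62.5, 110 and 119 CPM at 72 h in Gl2-KD, and at 62.4, 143 and 121 CPM and 66.4, 116 and 113 CPM in Srrm2-KD. Its log2 fold changes were -0.13 and -0.10 (SE 0.104 for both). The *Gstp2* share of the summed level therefore went from 45.2% ± 2.83 (SD, n = 3) to 56.9% ± 0.884 in Gl2-KD and from 43.8% ± 2.44 to 55.4% ± 2.08 in Srrm2-KD. The shares of 24 h and 72 h did not overlap, with a highest value of 47.5% at 24 h and a lowest of 53.0% at 72 h. The rising *Gstp2* and the flat *Gstp1* have near-identical coding sequences, and both windows shown above hold TGAGTCAGC. The windows were 88.1% identical where they aligned, and that of *Gstp1* holds a further TGANNNNGC match at its end. Why the genes diverged was not tested.

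**Figure D3:**
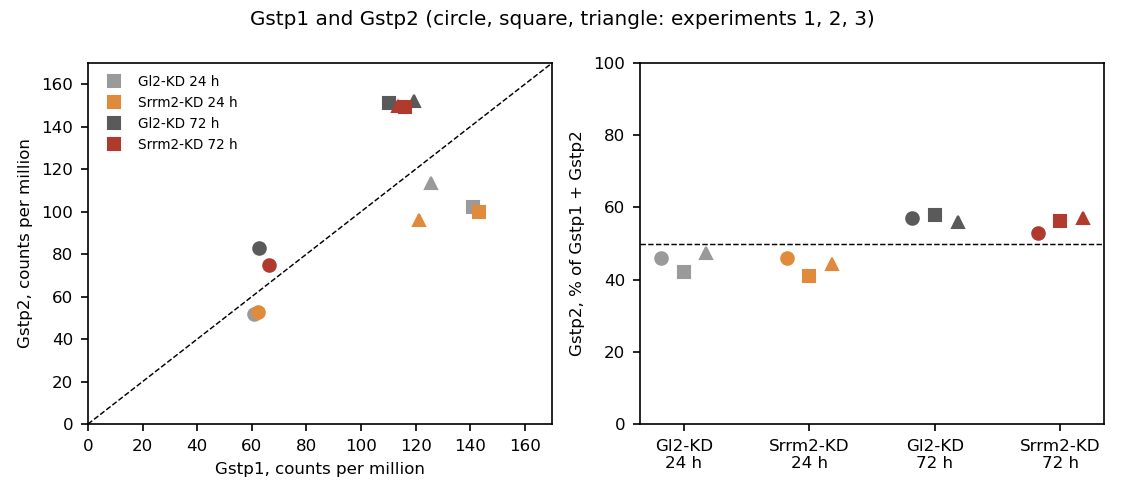
Left, *Gstp2* against *Gstp1* in CPM, 1 point per library, with the dashed line at equal levels; right, the *Gstp2* share of their sum (%) by group, with a dashed line at equal shares. The 24 h libraries lie below the line at up to 47.5% and the 72 h libraries above it at 53.0% or more.

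Among the other enzymes, *Akr1b3* was lower at 72 h in Gl2-KD in each experiment (log2 fold change -0.69, SE 0.193, edgeR adjusted p = 0.104). DESeq2, which called 4 of the 10 in Gl2-KD (6.89% of all genes), called *Akr1b3* lower (-0.71, adjusted p = 0.0138), and edgeR did so in 2 of the 15 fits that left out a library or an experiment. It was the 1 gene of the 10 whose groups did not overlap there (7.27% of all genes). In Srrm2-KD its difference was -0.34 (SE 0.191), and 0 of the 10 had groups apart (7.48% of all genes). *Hagh* was higher at 72 h in 3 of 3 experiments with both siRNAs, by 0.35 (adjusted p = 0.128) and 0.31 (adjusted p = 0.189). *Akr1b8* had -0.35 (SE 0.153) in Gl2-KD and 0.10 (SE 0.153) in Srrm2-KD, and the rare *Akr1b7* had 1.35 (SE 0.511, adjusted p = 0.208) and -0.68 (SE 0.542). *Glo1*, *Cbr1* and *Haghl* had time differences between -0.08 and 0.22.

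**Figure D4:**
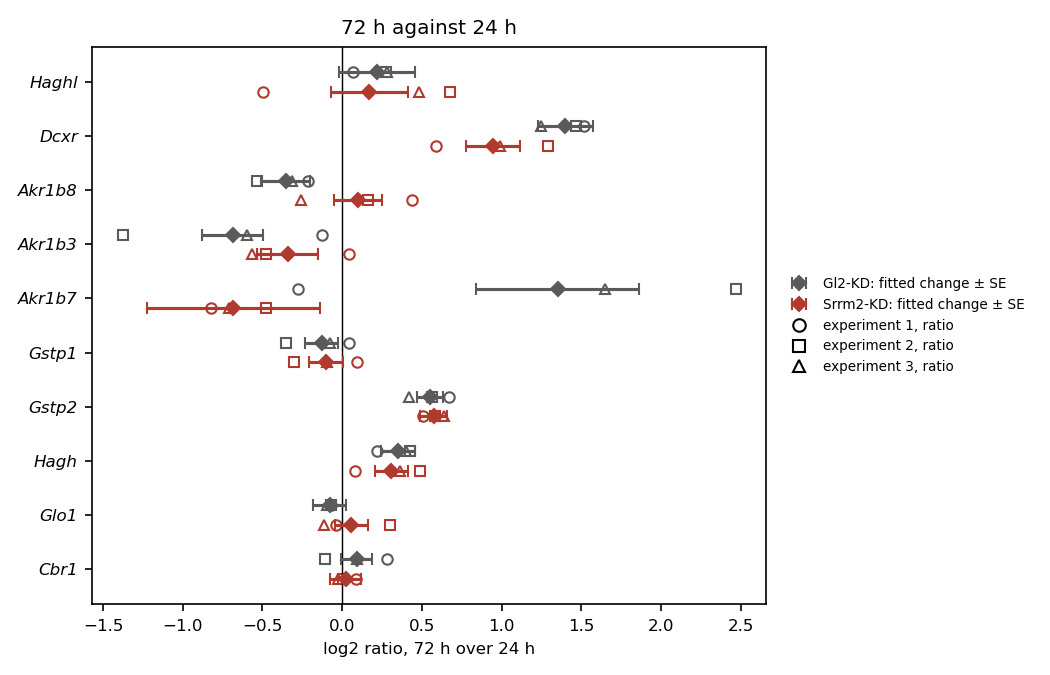
Log2 ratio of 72 h over 24 h (horizontal axis) for each enzyme in Gl2-KD (grey) and Srrm2-KD (red); diamonds with bars are the fitted fold change ± SE, and open symbols are the ratios within experiments 1, 2 and 3. *Dcxr* and *Gstp2* lie right of 0 in every experiment, and *Gstp1* lies near 0.

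Experiment 1 stood apart from the others. In 8 of the 10 genes experiment 1 was the lowest of the 3 in all 4 groups, a pattern seen in 20.2% of all genes tested. The mean of experiments 2 and 3 over that of experiment 1 was 2.44-fold for *Dcxr*, 2.00-fold for *Cbr1*, 1.96-fold for *Gstp1* and 1.52-fold for *Glo1*. *Haghl* was lowest in experiment 1 in 3 of 4 groups and *Akr1b7* showed no such order. *Srrm2* itself was higher in experiment 1. In Gl2-KD it had 911 and 962 CPM at 24 h and 72 h there, against 442 to 496 CPM in experiments 2 and 3. In Srrm2-KD of experiment 1 it had 517 and 461 CPM, near the control level of the other experiments. Experiment 1 also had the highest share of mitochondrially encoded counts in each group (2.36% to 4.23% over all libraries); the part of RNA quality in these levels was not tested.

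*Glo1* had a particular feature here. *Dnah8*, a dynein heavy chain gene of sperm flagella that overlaps the 5′ end of the *Glo1* span on the opposite strand by 2518 bases, was listed at 119, 111, 149 and 225 CPM in the libraries of experiment 1, at 16.4, 6.24, 0 and 0 CPM in those of experiment 2, and at 0.0317 CPM or less in experiment 3. The mean level of *Glo1* was 281 ± 8.38 CPM (SD over the 4 libraries) in experiment 1, 392 ± 56.0 in experiment 2 and 466 ± 22.8 in experiment 3. The sum of both genes was 433 ± 46.2, 397 ± 53.5 and 466 ± 22.8 CPM. Within experiment 1, *Glo1* stayed at 273 to 293 CPM while *Dnah8* ranged from 111 to 225 CPM. In experiment 2 at 72 h, where *Dnah8* was at 0 CPM, *Glo1* was at 347 CPM in Gl2-KD and 473 CPM in Srrm2-KD. Of the 31-base words of *Glo1*, 13.6% occurred in other genes when both strands were counted. *Dnah8* was not among the genes that shared most of them, the last-ranked of which held 0.806%. Whether reads passed between *Glo1* and *Dnah8* was not tested.

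**Figure D5:**
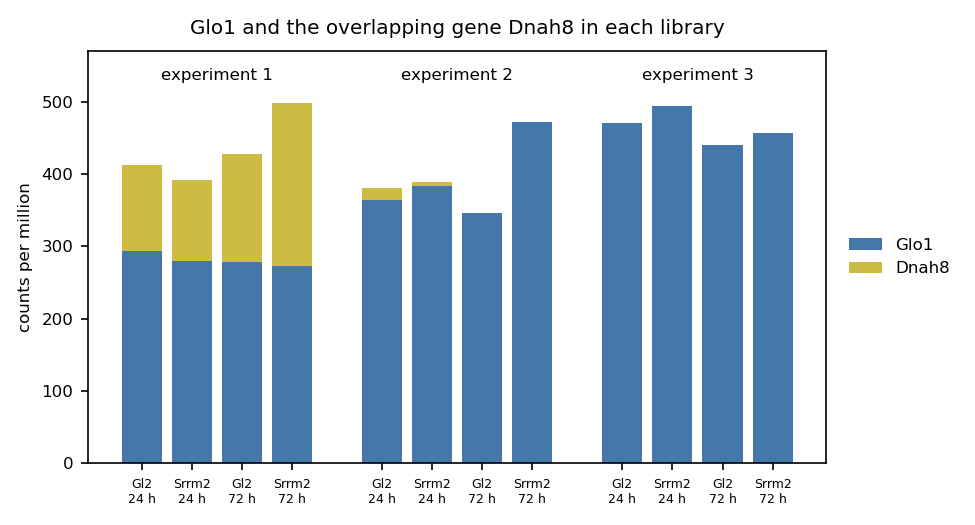
Stacked bars of *Glo1* (blue) and *Dnah8* (yellow) in CPM for each library, grouped by experiment. *Dnah8* adds 111 to 225 CPM in experiment 1 and at most 16.4 CPM in the others.

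The wider detoxification network was taken from 8 lists of 145 further genes, of which 129 were tested. In the comparisons of Srrm2-KD with Gl2-KD, edgeR called 0 of them at 24 h, at 72 h, on average and in the interaction. At an unadjusted p below 0.05 there were 3, 11, 12 and 2, where 2.62%, 12.9%, 13.6% and 1.64% of all genes lay. DESeq2 called 0, 4, 6 and 0, against 0.129%, 2.79%, 3.78% and 0.0103% of all genes, and limma-voom called 0 in each. The median log2 fold change of the 129 was 0.03 at 24 h and 0.00 at 72 h, against 0.01 and -0.02 for all genes. Among 22 tested glutathione transferases, *Gstm3* averaged -0.75 (edgeR adjusted p = 0.0951) and was lower in 3 of 3 experiments, and *Mgst1* averaged 0.61 (adjusted p = 0.238). Of 9 other aldo-keto reductases, *Akr1b10* among them, 8 had positive log2 fold changes at 24 h, 7 at 72 h and 8 on average. Their medians were 0.31, 0.61 and 0.25, with no call. Of 18 short-chain carbonyl reductases, *Dhrs11* averaged -0.59 (adjusted p = 0.179) and *Dhrs1* -0.36 (adjusted p = 0.248). *Aldh3a2* (-0.20) and *Aldh3b1* (0.24) had the smallest p of 18 aldehyde and alcohol dehydrogenases, and *Akr1a1* (0.10) and *Ugdh* (0.17) those of 7 genes of the polyol and glucuronate pathways.

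The regulator NRF2 (*Nfe2l2*) was at 90.2 ± 6.61 CPM in Gl2-KD against 90.5 ± 7.31 in Srrm2-KD at 24 h, with 106 ± 12 against 105 ± 11.9 at 72 h (SD, n = 3), with an averaged log2 fold change of -0.0049 (SE 0.0701). Its inhibitor *Keap1* had -0.07 (SE 0.103). These are RNA levels, and the protein and activity of NRF2 were not measured. The 25 NRF2 regulators and targets had a median log2 fold change of -0.0049 on average, with 12 higher, 13 lower and 0 called. The malic enzyme gene *Me1* had -0.21 (SE 0.0674, edgeR adjusted p = 0.209), and *Osgin1* was at 0.138 CPM or less in every group mean.

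With time, edgeR called 2 of the 129 genes in Gl2-KD and 1 in Srrm2-KD, all higher, where 1.45% and 0.551% of all genes were called in either direction. Of the 129, 68 had positive log2 fold changes with each siRNA. Those called in Gl2-KD were *Akr1e1*, a 1,5-anhydrofructose reductase (log2 fold change 0.88, edgeR adjusted p = 0.0389), and *Pnkd*, a relative of *Hagh* (0.49, adjusted p = 0.0427). In Srrm2-KD *Gpx4*, which reduces lipid peroxides, rose by 0.93 (adjusted p = 0.0467), and in Gl2-KD it had 0.75 (adjusted p = 0.0509). *Pnkd* had a difference between siRNAs of -0.51 at 72 h (SE 0.101, adjusted p = 0.124), lower in 3 of 3 experiments.

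Patterns most like those of the enzymes were sought by the Pearson correlation of log2 CPM over the 12 libraries after each experiment's mean was removed. These values are descriptions over libraries that share the siRNA and time groups. *Haghl* was most like *Mir5125* (r = 0.990), which is annotated within *Srrm2*, followed by *Pcsk4* (0.977) and *Mmp23* (0.976). The r of *Haghl* with *Srrm2* was 0.963, and 0.398 when the experiment means were not removed. *Akr1b8* was most like *Gm5134* (0.982), *Maml2* (0.981) and *Platr3* (0.974) and had r = -0.888 with *Srrm2* and -0.937 with *Haghl*. Without that removal, these last values were -0.937 and -0.382. *Dcxr* was most like *Snx21* (0.986), *Hspb8* (0.985) and *2900052L18Rik* (0.985), and *Gstp2* was most like *Ptprt* (0.986), *Iqcc* (0.985) and *Fam198b* (0.979). Between the enzymes, *Gstp2* had r = 0.906 with *Hagh* and 0.869 with *Dcxr*.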

How the data were processed

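PolyA+ RNA of 12 libraries was sequenced as stranded paired-end reads. The authors pseudo-aligned the reads with kallisto 0.46.1 to GENCODE M24 transcripts. Each gene has a single estimated count in each library, as the authors deposited it, with no scaling for library size; a strand setting or method of summing per gene is not stated in the sources used here. Of 42450 identifiers, 42156 were matched to symbols of GENCODE M21 (GRCm38), and the 294 unmatched held 0.175% of the counts. Estimated counts were rounded, filtered with filterByExpr (minimum count 10, minimum total 15; 19410 genes), scaled by TMM and fitted in edgeR 4.0.16 (R 4.3.3) with glmQLFit and glmQLFTest (legacy=TRUE), with 4 group terms and the experiment as a block. The study's covariate was the processing day, which the sources used here do not give. Libraries of the same experiment deviated together: 18 pairs had correlations of 0.281 to 0.747 across genes, and 36 other pairs -0.628 to 0.231. P-values were adjusted by Benjamini-Hochberg over all genes tested and called below 0.05. SE is the fold change divided by the root of F. CPM use TMM-scaled library sizes.

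The 10 genes and all lists were chosen with earlier results of these data known. Genes named outside the 10 are *Srrm2*, *Nfe2l2*, *Keap1*, and for each list those called or otherwise the 2 with the smallest p on average. Genes with the most similar pattern are named too. Of the genes that overlap one of the 10, only *Narfl*, *Fahd1* and *Dnah8* are named. *Akr1b10* was added after its values were seen. Alternatives were DESeq2 1.42.0, limma 3.58.1 with voom, other scalings, filters, fits and blocks, and leaving out each library or experiment.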

Additional observations from a re-analysis of the deposited data

How the results depend on the processing

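The log2 fold changes of *Haghl*, *Akr1b8*, *Dcxr* and *Gstp2* that are called or near the threshold kept their direction in every alternative; the counts of calls moved. With DESeq2 the calls among the 10 genes were 1 at 24 h, 4 at 72 h, 4 on average and 4 for time in Gl2-KD, and among the pathway genes 4 at 72 h, 6 on average, 18 for time in Gl2-KD and 7 for time in Srrm2-KD (0.129%, 2.79% and 3.78% of all genes between siRNAs; 6.89% and 5.47% for time). At 72 h, 3 of the 10 were called with no filter on low counts (0.144% of all genes), 4 with blocks for every pairing of experiment and time (3.73%) and 3 with the 2 groups alone (1.78%), and pathway calls were 6 with that block and 3 with the groups alone. On average, pathway calls were 1 with no filter (0.422%) and 8 with that block (5.79%). For time, fitting the groups alone called 1 (Gl2-KD) and 0 (Srrm2-KD) of the 10, and 1 and 0 pathway genes (0.872% and 0.0%). Pathway calls for time in Gl2-KD were 5 with limma-voom (2.48%), 1 with RLE factors (1.32%), 1 with library totals (1.39%), 5 with no filter (1.44%), 6 with at least 10 counts in every library (3.20%), 8 with legacy=FALSE (3.21%) and 4 with robust=TRUE (1.77%); in Srrm2-KD they were 2 with limma-voom (1.33%) and 2 with legacy=FALSE (1.44%). The cause was not tested.

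Without the replicate block, which pairs libraries of an experiment, the calls were 0 of the 10 on average, 0 for time in Gl2-KD and 0 in Srrm2-KD, and 0 pathway genes for time with either siRNA, with 0.0% of all genes called. *Haghl* then had an adjusted p of 0.481 on average.

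Leaving out 1 library or 1 experiment gave 0 to 1 calls among the 10 at 24 h, 0 to 3 at 72 h, 0 to 3 on average, 0 to 0 for the interaction, 0 to 3 for time in Gl2-KD and 0 to 1 in Srrm2-KD. Pathway calls were 0 to 0 at 24 h, at 72 h and in the interaction, 0 to 2 on average, 0 to 8 for time in Gl2-KD and 0 to 7 for time in Srrm2-KD. On average *Haghl* ranged from -1.62 without experiment 1 to -1.26 without experiment 3, *Dcxr* from -0.93 to -0.61 and *Akr1b8* from 0.66 to 0.86. In Gl2-KD the time call of *Dcxr* was lost without its 24 h libraries of experiments 1 or 2, its 72 h library of experiment 2, or experiment 2, and that of *Gstp2* without the same libraries or any experiment. With 3 libraries a group, and 7 to 147 counts for *Akr1b7*, small differences were not detectable.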
